A study of Mus musculus with 2 samples.

Results

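Mir205, Mir203 and the linked genes Mir183, Mir96 and Mir182 are microRNA (miRNA) genes known from ectoderm and its derivatives, and they were followed here in the embryonic mouse limb. They were taken by gene name from the annotation and make up 5 of the 1973 miRNA genes listed in the files. Levels are given as sense-strand counts per 1000000 sense counts (CPM). All 5 genes reached 10 CPM, the level taken here as detected, in both libraries, as did 295 listed genes in all. The samples are 1 group of 2 libraries of small RNA from whole limb at embryonic day 11.5, of healthy B6NCrl mice with the sexes mixed. Replicate 2 came from a pool of 88 embryos and replicate 1 from a pool of 109. The labels give no genotype, treatment, second tissue or second age, and assign both pools the same donor identifier. What follows is therefore the level of each hairpin, the proportions between them, and how far the libraries differed. Sense counts summed to 3459176 in replicate 2 and 2953085 in replicate 1.

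A miRNA is cut from a hairpin in a longer transcript, and its seed, bases 2 to 8 from the 5′ end, selects the messenger RNAs that it represses. At this stage the limb bud is a core of mesenchyme covered by a thin surface ectoderm, which includes the apical ectodermal ridge that sustains outgrowth. In skin, miR-205 is known to maintain epithelial progenitors, and miR-203 to limit proliferation as cells leave the basal layer, with p63 among its targets. The cluster of Mir183, Mir96 and Mir182 is known best from sensory cells of the ear, eye and sensory ganglia, and is also present in epithelia. The counts come from whole limb, so they do not show which cells held these miRNAs.

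The mature sequences are printed because the seeds show how the 5 genes group. One arm of each hairpin is shown, the arm generally regarded as the active one. The files count whole hairpins and do not separate arms. Sequences are from the RefSeq miRNA table on build GRCm38.p6, 5′ to 3′, with the seed in capitals. All 5 genes matched that table by symbol.
miR-205-5p, chr1:193507503-193507524, minus strand: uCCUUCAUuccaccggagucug
miR-203-3p, chr12:112130927-112130948, plus strand: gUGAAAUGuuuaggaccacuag
miR-182-5p, chr6:30165962-30165986, minus strand: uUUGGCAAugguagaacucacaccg
miR-183-5p, chr6:30169711-30169732, minus strand: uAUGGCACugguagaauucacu
miR-96-5p, chr6:30169506-30169528, minus strand: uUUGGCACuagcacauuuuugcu

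The sequences fall into 3 kinds. The arms of Mir205 and Mir203 have unrelated seeds, with 0 of 7 seed positions the same, and none of the 1738 mature sequences in the RefSeq table that come from another gene has either seed. The cluster's seeds are close relatives without being identical. Compared base by base from the 5′ end, the seeds of miR-182-5p and miR-96-5p have 6 of 7 positions the same, those of miR-183-5p and miR-96-5p also 6 of 7, and those of miR-182-5p and miR-183-5p 5 of 7. Over the whole arm, seed included, the closest pair is another one: miR-182-5p and miR-183-5p are the same at 18 of 22 positions, against 12 of 23 for miR-182-5p and miR-96-5p and 13 of 22 for miR-183-5p and miR-96-5p.

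All 3 cluster arms hold the word UGGCA within their first 9 bases, read on the strand of the miRNA only. That word stands in the first 9 bases of 16 of the 1738 mature sequences, or 0.921%, which come from 16 genes. Besides the cluster, 3 detected genes were among them. Mir34a led these at 79.8 CPM (replicate 2) and 80.6 CPM (replicate 1). Mir221, which has the word in its 5p arm, stood at 33.2 and 38.9 CPM, and Mir449a at 30.9 and 38.9 CPM, in replicate 2 and replicate 1. These are counts of whole hairpins, so they do not give the level of the arm with the word. All 3 lay far below the cluster genes. The word was taken at any place in the first 9 bases. Holding it therefore does not make these 3 seed relatives of the cluster. The full seed of miR-96-5p is shared with miR-1271-5p, whose gene is listed as Gm24195 and had a count of 0 in both libraries. A count of 0 allows up to 3 counts, or 0.867 CPM in replicate 2 and 1.02 CPM in replicate 1. The seed of the other arm, miR-96-3p, is shared with miR-3475-5p, whose gene Mir3475 stood at 10.1 and 11.5 CPM in replicate 2 and replicate 1. No other arm of the 5 hairpins shares its seed with a mature sequence of another gene in the table.

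The hairpins are printed because they are the unit that was counted, with both mature arms in capitals. Coordinates are those of the RefSeq table, which equal those of GENCODE M21 on mm10 for all 5 genes.
Mir205, chr1:193507463-193507530, minus strand: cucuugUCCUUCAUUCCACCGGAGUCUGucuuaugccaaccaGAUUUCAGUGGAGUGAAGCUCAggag
Mir203, chr12:112130880-112130955, plus strand: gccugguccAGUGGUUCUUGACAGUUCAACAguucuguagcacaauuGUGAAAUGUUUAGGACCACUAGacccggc
Mir182, chr6:30165918-30165992, minus strand: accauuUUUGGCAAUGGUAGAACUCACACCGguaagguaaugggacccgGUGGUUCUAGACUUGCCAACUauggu
Mir183, chr6:30169668-30169737, minus strand: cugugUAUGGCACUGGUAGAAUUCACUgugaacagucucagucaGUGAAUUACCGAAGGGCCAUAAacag
Mir96, chr6:30169446-30169551, minus strand: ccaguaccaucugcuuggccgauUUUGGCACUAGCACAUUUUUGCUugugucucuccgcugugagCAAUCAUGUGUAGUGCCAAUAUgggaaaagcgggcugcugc

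The 3 loci differ in their surroundings. Mir205 (ENSMUSG00000065533.1) lies wholly in an exon of the noncoding gene 4631405K08Rik, named Mir205hg in RefSeq, on the same strand. No protein-coding gene lies within 137164 bases of it at lower coordinates or 1110687 bases at higher ones. Mir203 (ENSMUSG00000065574.1) overlaps no other GENCODE gene and lies between the protein-coding genes Aspg, 3320 bases away, and Kif26a, 15252 bases away. Mir182 (ENSMUSG00000076361.1), Mir96 (ENSMUSG00000065586.1) and Mir183 (ENSMUSG00000065619.2) are likewise intergenic, between the protein-coding genes Nrf1 and Ube2h. Along the transcribed strand their order is Mir183, Mir96, Mir182, with 116 bases between Mir183 and Mir96, 3453 bases between Mir96 and Mir182, and 3820 bases in all.

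No exact copy of any of these hairpins was found among the other GENCODE miRNA genes. This matters because reads that fit several places were kept out of all gene counts. Such reads made up 23.4% of the reads in replicate 2 and 24.7% in replicate 1. The longest stretch that any of the 5 hairpins has in common with another GENCODE miRNA hairpin, on either strand, was 11 to 14 bases, shorter than a mature miRNA. None of their 10 arms occurs whole in another of the 141767 GENCODE transcripts, apart from the host transcript of Mir205. Copies with scattered mismatches, and copies outside annotated transcripts, were not looked for.

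Mir205 was the most abundant of the 5 hairpins. Its counts were 20485 in replicate 2 and 15126 in replicate 1, or 5922 CPM (95% Wilson interval 5842 to 6003) and 5122 CPM (5041 to 5204). It ranked 38th of all listed genes in replicate 2 and 40th in replicate 1. Wilson intervals cover counting error of reads only. Copies made by PCR are not independent molecules, so the intervals can be too narrow for molecules.

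Mir203 came next. Its counts were 13571 in replicate 2 and 9329 in replicate 1, or 3923 CPM (3858 to 3990) and 3159 CPM (3096 to 3224), at ranks 49 and 52. Both values lay below both of those of Mir205.

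The cluster genes followed in the order Mir182, Mir183, Mir96. Mir182 had 10025 counts in replicate 2 and 6583 in replicate 1, or 2898 CPM (2842 to 2955) and 2229 CPM (2176 to 2284). Mir183 had 7602 counts in replicate 2 and 5741 in replicate 1, or 2198 CPM (2149 to 2248) and 1944 CPM (1894 to 1995). Mir96, whose miRNA is needed for the maturation of hair cells in the mouse ear, was the lowest, with 2692 counts in replicate 2 and 2150 in replicate 1, or 778 CPM (749 to 808) and 728 CPM (698 to 759.5).

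**Figure D1:**
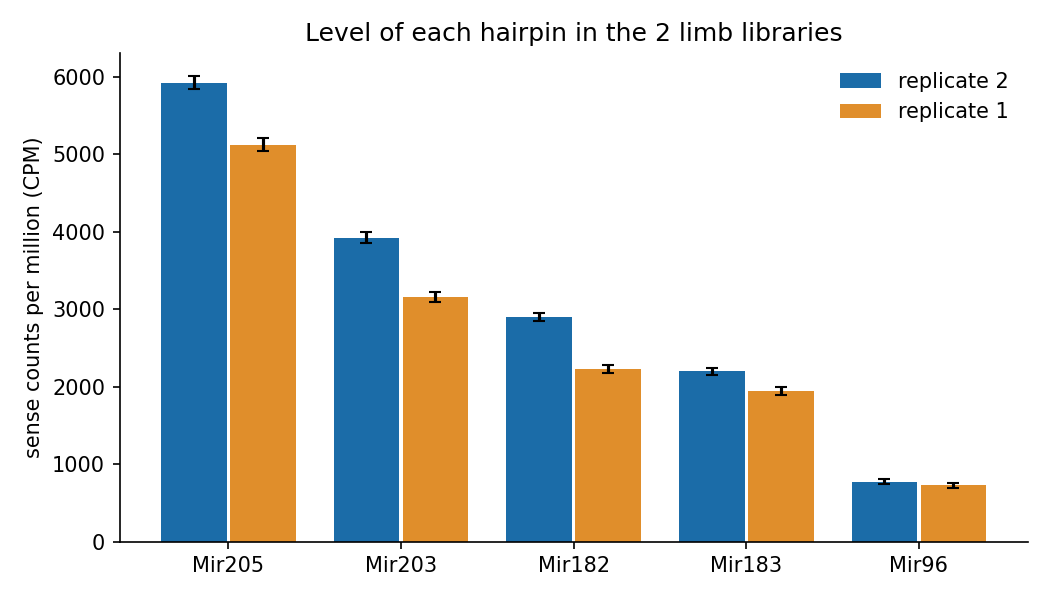
Level of each hairpin in CPM, as bars for replicate 2 (left) and replicate 1 (right), with 95% Wilson intervals for counting error. The order Mir205, Mir203, Mir182, Mir183, Mir96 is the same in both libraries, and each bar of replicate 2 is the taller of its pair.

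This order was the same in both libraries, and no hairpin's range over the libraries overlapped that of its neighbour in the order. The closest approach was between Mir182 in replicate 1, at 2229 CPM, and Mir183 in replicate 2, at 2198 CPM. Over both libraries the level was 5522 ± 566 CPM for Mir205, 3541 ± 540 CPM for Mir203, 2564 ± 473 CPM for Mir182, 2071 ± 179 CPM for Mir183 and 753 ± 35.5 CPM for Mir96 (SD, n = 2). The means of Mir182 and Mir183 lay about 1 SD of Mir182 apart. Within a library the neighbours were better separated. On the log2 scale Mir205 exceeded Mir203 by 0.65 ± 0.07, Mir203 exceeded Mir182 by 0.47 ± 0.05, Mir182 exceeded Mir183 by 0.30 ± 0.14, and Mir183 exceeded Mir96 by 1.46 ± 0.06 (SD, n = 2). With 2 libraries the smallest p that a two-sided exact test of such a ratio can give is 0.5, and none was run. These are ratios of hairpin counts, each read being a whole small RNA, so they were not divided by length. Any preference of the library preparation for certain sequences would be present in both libraries and is not in the SD.

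Together the 5 hairpins held 1.57% of sense counts in replicate 2 (1.559 to 1.585%) and 1.32% in replicate 1 (1.305 to 1.331%), 1.45% ± 0.18 (SD, n = 2). In bulk tissue, fewer cells of a type and less RNA per cell cannot be told apart, which holds for every share given here. By locus, the summed cluster came close to Mir205 and was below it in both libraries. The Wilson intervals of the cluster and Mir205 overlapped in replicate 2 and were apart in replicate 1. The cluster held 0.587% of sense counts in replicate 2 and 0.490% in replicate 1, beside 0.592% and 0.512% for Mir205 and 0.392% and 0.316% for Mir203. Among the loci, the cluster took 37.4% of the 5 hairpins' counts in replicate 2 and 37.2% in replicate 1, Mir205 37.7% and 38.9%, and Mir203 24.96% and 23.96%, in replicate 2 and replicate 1.

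**Figure D2:**
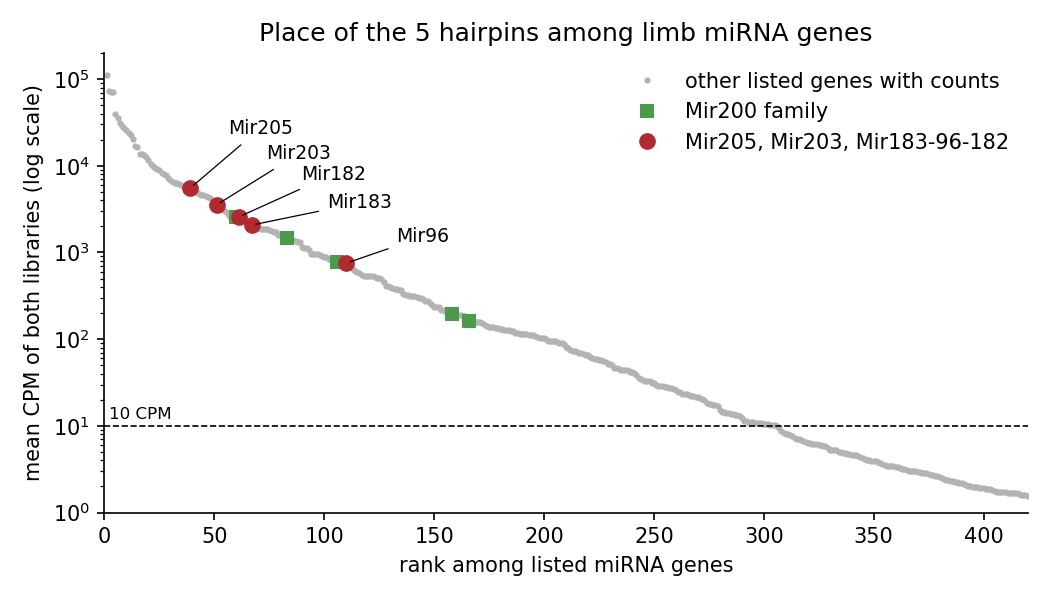
Mean CPM of both libraries (log scale) against rank for listed miRNA genes, with the 5 hairpins as circles, the Mir200 family as squares and other genes as dots. The 5 hairpins lie between rank 39 (Mir205) and rank 110 (Mir96), all far above the detection level of 10 CPM drawn as a dashed line.

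Within the cluster the level did not follow the order along the transcript. The hairpin in the middle, Mir96, was the lowest, although only 116 bases separate it from Mir183. Mir183 had 2.82 times the counts of Mir96 in replicate 2 and 2.67 times in replicate 1. Mir182, which is farthest from the others, was the highest. It held 49.3% of the cluster's counts in replicate 2 (48.7 to 50.0%) and 45.5% in replicate 1 (44.7 to 46.3%). Mir183 held 37.4% (36.8 to 38.1%) in replicate 2 and 39.7% (38.9 to 40.5%) in replicate 1. Mir96 held 13.2% (12.8 to 13.7%) in replicate 2 and 14.9% (14.3 to 15.4%) in replicate 1. The intervals of the libraries did not overlap for any of the 3 shares.

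**Figure D3:**
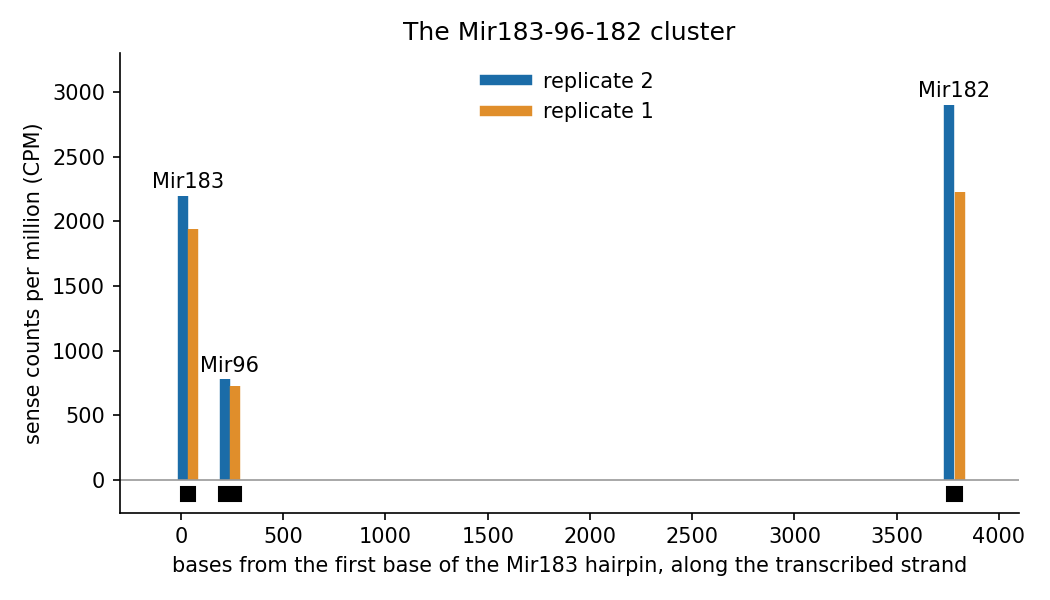
The cluster of Mir183, Mir96 and Mir182 drawn to scale along the transcribed strand, in bases from the start of the Mir183 hairpin, with hairpins as black boxes and bars for CPM in replicate 2 (left) and replicate 1 (right). Mir183 and Mir96 lie 116 bases apart and differ 2.82-fold in replicate 2 and 2.67-fold in replicate 1, while Mir182 lies 3453 bases further and is the highest.

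Of the 3 ratios within the cluster, both that involve Mir182 had counting intervals that were apart between the libraries. The log2 ratio of Mir182 to Mir183 was 0.40 in replicate 2 (95% exact counting interval 0.36 to 0.44) and 0.20 in replicate 1 (0.15 to 0.25). That of Mir182 to Mir96 was 1.90 in replicate 2 and 1.61 in replicate 1, again with intervals apart. The log2 ratio of Mir183 to Mir96 was 1.498 (1.43 to 1.56) in replicate 2 and 1.42 (1.34 to 1.49) in replicate 1, with overlapping intervals. Over all 10 pairs among the 5 genes, the intervals of the libraries overlapped for 4 and were apart for 6. The log2 ratio of Mir205 to Mir183 was in the overlapping set, at 1.43 in replicate 2 and 1.40 in replicate 1.

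All 5 hairpins had the higher level in replicate 2, and 4 of them passed a test for a difference between the libraries. That test is a two-sided exact binomial test of each gene's counts against TMM-scaled library sizes, with Benjamini-Hochberg adjustment over the 422 genes with 10 or more counts. It compares these 2 libraries, not conditions, and measures spread beyond counting error of reads. It called 21.3% of tested genes in either direction and 9.48% as higher in replicate 2. Among the 201 tested genes at a mean of 100 CPM or more, where counts are large enough for small differences to pass, the second share was 19.9%.

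The log2 ratio of replicate 2 over replicate 1 was 0.37 for Mir182 (exact binomial test, adjusted p = 1.34e-56), 0.30 for Mir203 (adjusted p = 1.01e-52), 0.20 for Mir205 (adjusted p = 1.06e-35) and 0.16 for Mir183 (adjusted p = 9.46e-10). Mir96, at 0.08, did not pass by the same exact test (adjusted p = 0.167). The median of the 5 ratios was 0.20, beside 0 for all tested genes and 0.01 for those at 100 CPM or more. In absolute size the median ratio of that last group was 0.08. Ordered by ratio among those 201 genes, Mir182 was number 2, Mir203 number 4, Mir205 number 12, Mir183 number 20 and Mir96 number 56. When counting error was widened by the median spread of all genes, the same 4 hairpins passed, and 4.98% of tested genes were called higher. When it was widened by the mean spread, Mir182 and Mir203 passed, Mir205 and Mir183 did not, and 1.18% were called higher. Both of these shares are over all 422 tested genes, and the shares at 100 CPM or more were not computed. Those would be the closer comparison, since all 40 genes called higher by the exact test lay among the 201.

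**Figure D4:**
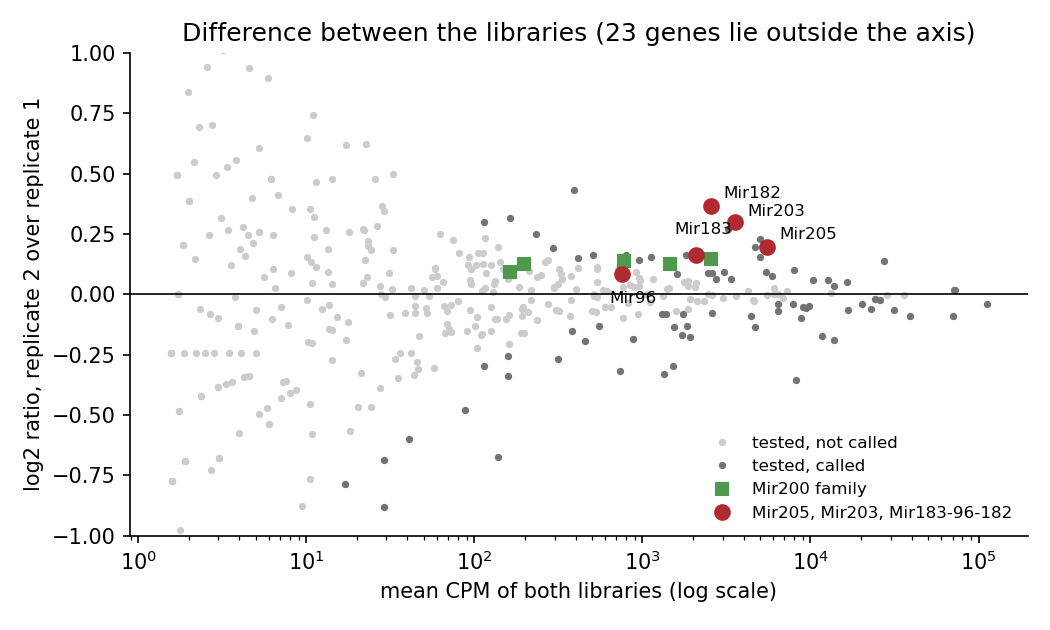
Log2 ratio of replicate 2 over replicate 1 against mean CPM (log scale) for the tested genes, dark dots being called by the exact binomial test and light dots not, with the 5 hairpins as circles and the Mir200 family as squares. All 5 circles and all 5 squares lie above 0, and 23 tested genes lie outside the axis, beyond an absolute log2 ratio of 1.

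The Mir200 family, which marks epithelia and represses the mesenchymal factors Zeb1 and Zeb2, was set beside the 5 hairpins. Whole limb cannot check their label of ectoderm. All 5 of its genes were detected. They held 0.543% of sense counts in replicate 2 and 0.490% in replicate 1. The 5 hairpins had 2.89 times the counts of the whole family in replicate 2 and 2.69 times in replicate 1. Mir429 led it at 2707 CPM (replicate 2) and 2424 CPM (replicate 1), followed by Mir200c at 1529 and 1387 CPM and Mir200b at 821 and 740 CPM. The family was thus present in whole limb beside the 5 hairpins, which places neither in a given cell. All 5 ratios of the family were above 0 with a median of 0.13. Of the 5, 3 passed as higher in replicate 2, with 0 lower, beside 9.48% of all tested genes and 19.9% of those at 100 CPM or more. These calls, and those of the lists that follow, are from the exact binomial test. Whether they hold with other scalings or a widened spread was not looked at. How far the 5 ratios are independent was not tested.

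Other miRNAs of skin and keratinocytes were mixed in direction, with 3 of 7 log2 ratios above 0, and whether they differ from the Mir200 family was not tested. They held 0.706% of sense counts in replicate 2 and 0.726% in replicate 1, and 6 of 7 were detected. Mir21a, which many tissues express, stood at 4305 CPM (replicate 2) and 4541 CPM (replicate 1) and passed as lower. Mir125b-2 passed as higher, at 438 and 390 CPM in replicate 2 and replicate 1 (exact binomial test, adjusted p = 0.0355). Mir125b-1, which gives the same mature miRNA, stood at 2101 and 2125 CPM and did not pass. Reads that fit both Mir125b genes can be missing from either count. Mir211, at 38.7 and 27.1 CPM in replicate 2 and replicate 1, had the highest log2 ratio of the list, 0.50, above those of the 5 hairpins, and did not pass (exact binomial test, adjusted p = 0.0618). The median log2 ratio of this list was −0.03. Of its 7 genes, 1 passed as higher and 1 as lower. Of all tested genes 9.48% passed as higher and 11.8% as lower, and of those at 100 CPM or more 19.9% and 21.4%.

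Neuronal miRNAs were listed because sensory neurons also express the cluster. Of 9 genes named, 7 are listed in the files, 2 were detected and 4 had no sense count in either library. They held 0.0356% of sense counts in replicate 2 and 0.0334% in replicate 1. Mir137 led at 218.5 CPM (replicate 2) and 202.5 CPM (replicate 1), followed by Mir7-1 at 135 and 129 CPM and Mir9-3 at 2.31 and 2.03 CPM. Mir7-1 and Mir9-3 share their mature miRNA with other genes, so their counts are uncertain. Mir124a-1, Mir124a-2 and Mir124a-3, whose miRNA is abundant in neurons, and Mir9-2 were at 0. Each of these 4 has a stretch of 20 bases in common with its sister genes, so their reads would fall among the multimapping ones and a 0 does not limit the mature miRNA. None of the 3 genes tested passed. Mir137 is the 1 listed gene without such a copy, so these counts do not measure how much neuronal RNA was present. The part of neurons in the cluster's counts was not tested.

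Lists for the other cell types of the limb gave the setting. Mesenchyme markers held 5.26% of sense counts in replicate 2 and 5.68% in replicate 1. Mir214, Mir140 and Mir199b led them, and 4 of 5 passed as lower in replicate 2 with 0 higher. Of all tested genes 11.8% passed as lower, and of those at 100 CPM or more 21.4%. Their median log2 ratio was −0.19. The Mir199 genes give the same mature miRNA, so their counts are uncertain. Endothelium was represented by Mir126a alone, with 2.41% in replicate 2 and 2.43% in replicate 1. It passed as lower at a log2 ratio of −0.02 (exact binomial test, adjusted p = 0.0332). With total sense counts as scaling, genes called lower fell from 50 to 42. Whether Mir126a stayed among them was not looked at. Blood markers held 0.121% in replicate 2 and 0.104% in replicate 1, led by Mir155, Mir451a and Mir223. Of 6 tested, 1 passed as higher, Mir451a, beside 9.48% of all tested genes and 19.9% of those at 100 CPM or more. Skeletal muscle markers held 0.0576% and 0.0560%, led by Mir206 and Mir133b, and 0 of 2 tested genes passed, while Mir133a-1 and Mir1a-1 were at 0. Mir133a-1, Mir1a-1, Mir133b and the blood gene Mir486 each have a stretch of 20 bases in common with another gene. Their counts, and with them the shares of both lists, are therefore uncertain. The part of the make-up of the tissue pools in the differences between the libraries was not tested.

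**Figure D5:**
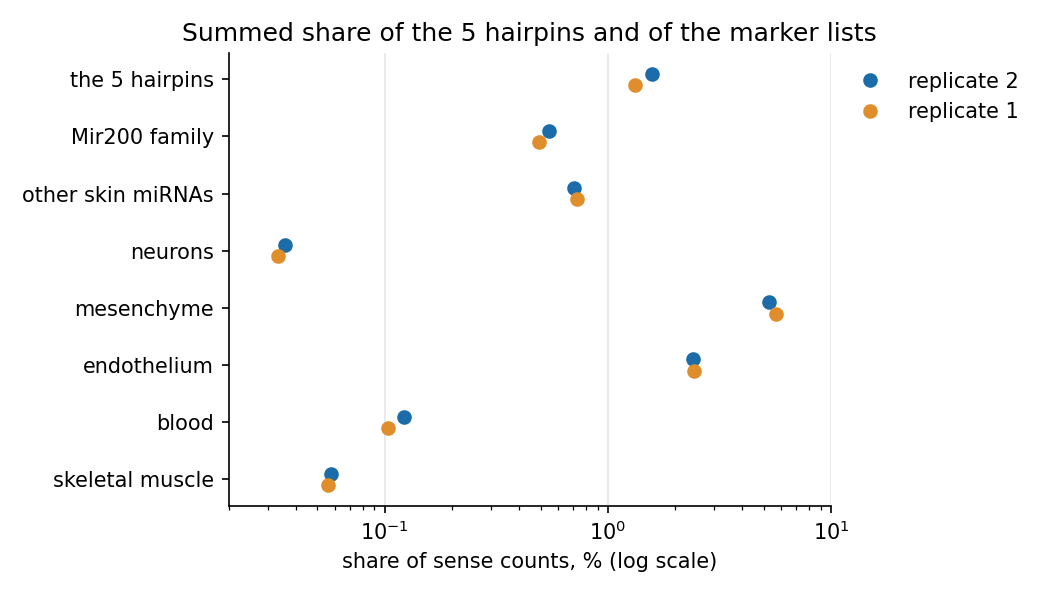
Summed share of sense counts (log scale) of the 5 hairpins and of each marker list, in replicate 2 (upper point) and replicate 1 (lower point). The 5 hairpins stand at 1.57% and 1.32%, above the Mir200 family and the neuronal list and below mesenchyme and endothelium.

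For each hairpin the detected genes with the most similar level in both libraries were found by Euclidean distance in log2(CPM + 1) over the 2 libraries. With 2 samples of 1 tissue this describes closeness in level and nothing about shared function. Closest of all to a hairpin was Mir541, at distance 0.008 from Mir203, at 3912 CPM (replicate 2) and 3173 CPM (replicate 1). Mir203 was next closest to Mir181b-2 (distance 0.174). Mir205 was closest to Mir143 (0.077) and Mir487b (0.081). Mir182 was closest to Mir429 (0.156) and Mir382 (0.200), Mir183 to Mir188 (0.085) and Mir15b (0.096), and Mir96 to Mir320 (0.047) and Mir323 (0.067).

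On the strand opposite to the hairpins almost nothing was counted. Mir205 and Mir96 had 0 opposite-strand counts in both libraries, Mir182 had 1 in replicate 2 and 0 in replicate 1, and Mir183 had 1 in each. Mir203 stood apart, with 31 opposite-strand counts in replicate 2 and 22 in replicate 1, which were not part of its level. They made up 0.228% (95% Wilson interval 0.161 to 0.323%) and 0.235% (0.155 to 0.356%) of the reads at that hairpin. RefSeq places the gene of miR-203b there, named Gm51289, and its arms are shown with the seed in capitals.
miR-203b-5p, chr12:112130927-112130946, minus strand: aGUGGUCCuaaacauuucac
miR-203b-3p, chr12:112130887-112130908, minus strand: uUGAACUGucaagaaccacugg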

How the data were processed

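Small RNA of 2 limb libraries was sequenced. The deposited files give raw counts for each miRNA gene, not normalized, in 3 columns that hold, judged from their values, both strands, sense and opposite strand. Per the notes deposited with each sample, the assembly is mm10 and the annotation GENCODE M4. Aligner and counter: not given in the sources used here. The 4 lines of reads without a gene held 52.3% of reads in replicate 2 and 54.7% in replicate 1 and stayed out of library sizes. Names came from GENCODE M21 (1894 of 1973 genes matched) and sequences from RefSeq.

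CPM used total sense counts. The exact binomial test was run on simulated data that held counting error only. That run does not cover the wider spread seen between these libraries. The test used TMM factors (edgeR 4.0.16, R 4.3.3) over genes with 10 or more summed counts. Its log2 ratios took a prior count of 0.5, and its threshold was 0.05. It stands in for edgeR's quasi-likelihood test, since 1 group leaves nothing to compare. Other tools were DESeq2 1.42.0 (size factors, as an alternative), pandas 2.3.3, scipy 1.17.1, numpy 2.4.6 and Python 3.11.15. Named genes are the 5 hairpins, the 2 nearest in level to each, and up to 3 leading genes of each of 7 marker lists. Genes that share a seed or word, genes at 0, neighbouring genes, and Mir211 (chosen after its value was seen) were also named. The hairpins and lists were chosen with earlier results of these data known. The labels do not say what the shared donor identifier stands for, so p-values measure only the spread between these libraries, which may be technical.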

Additional observations from a re-analysis of the deposited data

Results flagged for a closer look

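The opposite-strand column, which no level or test above used, held more than the 3 counts that a count of 0 allows at 1 of the 5 hairpins, Mir203. It had 31 counts there in replicate 2 and 22 in replicate 1, or 8.96 CPM in replicate 2 and 7.45 CPM in replicate 1 over the sense totals. Of the 295 detected genes, 268 had no opposite-strand count at all, 7 had more than 3 in both libraries, and 12 had a higher opposite-strand share of their reads than Mir203. The other 4 hairpins had at most 1 count in either library. Whether the reads at Mir203 come from the miR-203b hairpin annotated on that strand was not tested, since the files give no read sequences.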

How the results depend on the processing

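The summed share of the 5 hairpins, 1.45%, depends by construction on its denominator. It was 0.659% of all reads in the files and 1.63% of sense counts without the most abundant gene, and ranged from 1.32% to 1.57% with either library left out. With both strands counted it was 1.41%, within 1 SD. The levels and the pair ratios moved by less than 1 SD with other scalings or pseudocounts and with both strands together. Leaving out 1 of 2 libraries shifts a mean by a fixed part of the SD and says nothing about stability. The test between the libraries depends on how the spread is set. With counting error widened by the median spread of all genes it called 48 genes, 21 higher and 27 lower, in place of 90 (40 and 50), and the same 4 hairpins. Widened by the mean spread it called 12 genes, 5 higher and 7 lower, and 2 hairpins. Mir205 (adjusted p = 0.105) and Mir183 (adjusted p = 1) were then lost, while Mir182 (adjusted p = 0.0123) and Mir203 (adjusted p = 0.016) passed. These widened tests use a normal form of the test over the same 422 genes, and the cause of the spread was not tested. Across all settings the adjusted p of Mir96 ran from 0.0924 to 1. Total counts or DESeq2 size factors as scaling, other filters and both strands together left the 4 calls in place. No test between the libraries is possible with 1 left out. At this depth 1 count is worth 0.289 CPM in replicate 2 and 0.339 CPM in replicate 1. Mir96 had the fewest counts of the 5, 2692 in replicate 2 and 2150 in replicate 1. Whether depth kept Mir96 from passing was not tested. No paired analysis was possible because the libraries form 1 group.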
